A study of Mus musculus with 24 samples.

Results

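The glutathione transferase genes described here are 10 genes of mouse liver, namely Gsta1, Gsta2, Gsta3 and Gsta4 of the alpha class, Gstm1, Gstm2, Gstm3 and Gstm6 of the mu class, Gstp1 of the pi class and Gstt3 of the theta class. They were chosen by name, each had a single row, and they are 10 of the 54432 genes in the deposited table. All 10 passed the filter on low values. The 24 mice were C57BL/6 males in 4 groups of 6: Trib1 Flox/Flox (labelled Trib1-KO), Cebpa Flox/Flox (Cebpa-KO), Trib1;Cebpa Flox/Flox (labelled DKO) and wild type (WT). Every group, WT included, was injected into the peritoneum with an adeno-associated virus (AAV) that encodes Cre recombinase, the enzyme that deletes a floxed stretch of DNA. The labels do not name the promoter that drives Cre. Injection was at 20 to 21 weeks of age, in 2 cohorts of 3 mice per group, and whole liver was taken 4 weeks later, from chow-fed mice fasted for 4 h. According to its title, the study asked how Trib1 acts through Cebpa on lipoprotein metabolism.

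Glutathione transferases join the tripeptide glutathione to reactive molecules, which makes them easier to excrete. The cytosolic enzymes work as pairs of subunits, most of them from the same class, and are abundant proteins of hepatocytes. In rodent liver many of their genes respond to the oxidant sensor NRF2 and to the nuclear receptors CAR and PXR, and several differ between males and females. Trib1 encodes a pseudokinase that brings the transcription factor C/EBPα, the product of Cebpa, to a ubiquitin ligase for degradation.

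The libraries held 23385900 to 27190700 normalized counts, from an estimated 18640900 to 34286900 reads, and 19831 to 21189 genes above 0. Normalized counts are estimated read counts divided by a size factor per library. Cebpa stood at 2295 to 3163 (median 2627) normalized counts in livers labelled Trib1-KO, 50.5 to 101 (median 84.9) in Cebpa-KO livers, 58.1 to 102 (median 87.8) in livers labelled DKO and 4264 to 7412 (median 6144) in WT livers. Trib1 went against its label, at 3734 to 4784 (median 4164) in livers labelled Trib1-KO, 215 to 646 (median 287) in Cebpa-KO livers, 286 to 1077 (median 769) in livers labelled DKO and 874 to 1475 (median 1249) in WT livers. The table has a single value per gene, so the loss of the floxed stretch of Trib1 cannot be read from it. All 8 hepatocyte markers were present in every group, with sums of 714939 to 863216 normalized counts in livers labelled Trib1-KO, 2318540 to 3134390 in Cebpa-KO livers, 2291040 to 2681430 in livers labelled DKO and 1694580 to 2467830 in WT livers. Abundant genes carry most of such a sum. The single markers did not all follow it, and their counts are given below. In the within-group correlations of whole libraries, WT library B3, Trib1-KO library D2, Cebpa-KO library F3 and DKO library H3 were the lowest of their groups. Calls of the 10 genes that change without B3, F3 and H3, or without all 4 libraries, are given with and without them. Both sets were chosen after seeing the data. For Gsta1 and Gsta2, B3 was the highest WT library, F3 the lowest Cebpa-KO library and H3 the lowest DKO library. Leaving them out therefore had to raise the differences of these genes from WT in Cebpa-KO livers and in livers labelled DKO.

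In livers labelled Trib1-KO, 7 of the 10 genes were lower than in WT and 2 were higher. Gsta2, Gsta3, Gsta4, Gstm1, Gstm3, Gstm6 and Gstp1 fell by 0.84 to 1.54 on the log2 scale, and Gsta1 and Gstt3 rose by 2.30 and 1.36. Here and below a gene was called where the adjusted p from limma, a linear model fitted to all genes at once, was under 0.05. Over all 19810 genes tested, 10.9% were called lower and 11.8% higher in this comparison. The median log2 change of the 10 genes was -0.91, beside 0.0077 over all genes tested. The 6 and 6 libraries did not overlap for 7 genes, 6 with all livers labelled Trib1-KO below WT and 1 with all above, where 12% of all genes did not overlap. With equal totals over all genes but those of the major urinary proteins (Mup), the median of all genes moved by 0.23, the same 2 genes rose and the same 7 fell, by 0.60 to 1.30. In whole liver, fewer cells of a type and less RNA per cell cannot be told apart. In the same livers labelled Trib1-KO, 6 of 8 macrophage markers rose and 4 of 8 hepatocyte markers fell, and their part in these results was not tested.

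In Cebpa-KO livers, 6 of the 10 genes were higher than in WT and 1 was lower. Gsta2, Gsta3, Gstm1, Gstm2, Gstm3 and Gstm6 rose by 0.44 to 2.03, and Gstt3 fell by 1.97. The shares called over all genes were 4.6% higher and 5.22% lower, and the median change was 0.60 over the 10 genes and 0.0089 over all genes. Libraries did not overlap for 4 genes, Gstm2, Gstm3 and Gstm6 above WT and Gstt3 below, where 5.17% of all genes did not overlap. In livers labelled DKO 1 gene, Gstm3, was higher than in WT and 1, Gstt3, was lower, where 2.84% of all genes were called higher and 3.25% lower. The median change there was 0.21 over the 10 genes and 0.0032 over all genes, and Gstm3 alone did not overlap with WT (3.11% of all genes). These 3 comparisons use the same 6 WT libraries, so their values are set side by side below and are not independent of each other.

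**Figure D1:**
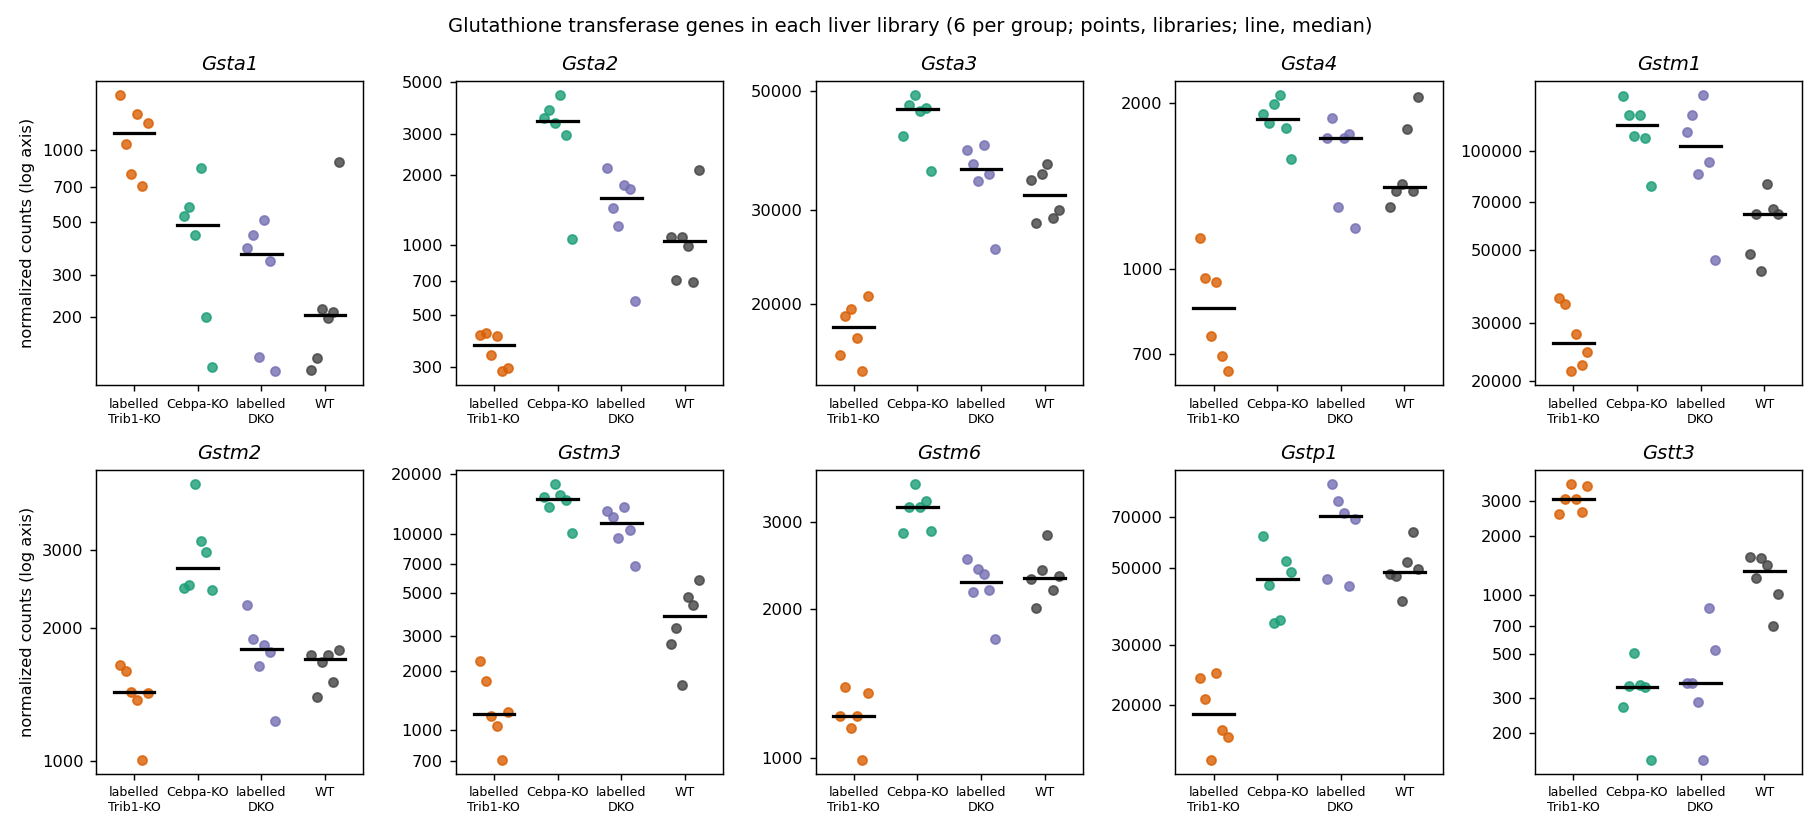
Normalized counts (log axis, with its own range in each panel) of the 10 glutathione transferase genes in the 6 libraries of each group, with a line at the group median. Gsta1 and Gstt3 are highest in livers labelled Trib1-KO, while Gsta2 and Gstm3 are lowest there, and Gstm3 lies above all WT libraries in both Cebpa-KO livers and livers labelled DKO.

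**Figure D2:**
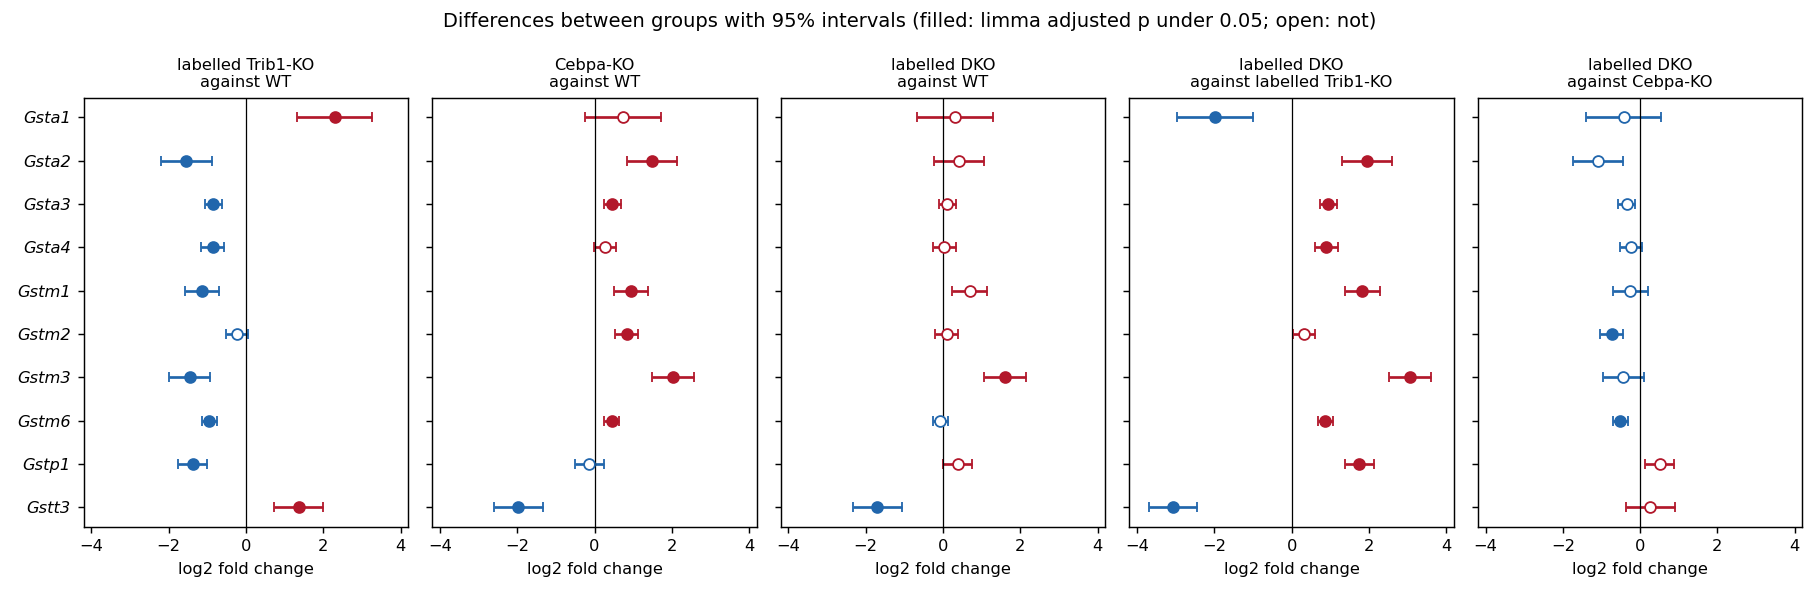
Log2 fold changes with 95% intervals of the 10 genes in 5 comparisons, filled where limma's adjusted p was under 0.05. In the first panel, 7 filled points lie left of 0 for livers labelled Trib1-KO against WT, and 6 lie right of 0 for Cebpa-KO livers against WT.

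In the alpha class, Gsta1 rose in livers labelled Trib1-KO while Gsta2, Gsta3 and Gsta4 fell. Gsta1 and Gsta2 encode near-identical subunits, with 653 of 669 aligned coding bases (97.61%) the same. Gsta4 (78182774 to 78209349, plus strand), Gsta1 (78230656 to 78242684, plus strand), Gm3776 (78257129 to 78269166, plus strand) and Gsta2 (78331018 to 78355788, minus strand) lie in this order on chromosome 9 of GRCm38. Gm3776 shares 667 of 669 aligned coding bases with Gsta1 (99.7%). Where reads fit more than 1 of Gsta1, Gm3776 and Gsta2, the estimated counts depend on how the authors' quantification divided them, so the split between these genes is uncertain. The RefSeq promoter windows of these 3 genes, 250 bases before to 50 after the start of transcription on GRCm38.p6, are shown side by side. The genes are near-identical in coding sequence, and in livers labelled Trib1-KO Gsta1 and Gm3776 rose together while Gsta2 fell. The windows cover chr9:78230419-78230718 on the plus strand, chr9:78256879-78257178 on the plus strand and chr9:78347096-78347395 on the minus strand. Capitals mark the longest run found in all of them, 29 bases long, which begins 118 bases before the start in Gsta1, 105 in Gm3776 and 121 in Gsta2.
Gsta1: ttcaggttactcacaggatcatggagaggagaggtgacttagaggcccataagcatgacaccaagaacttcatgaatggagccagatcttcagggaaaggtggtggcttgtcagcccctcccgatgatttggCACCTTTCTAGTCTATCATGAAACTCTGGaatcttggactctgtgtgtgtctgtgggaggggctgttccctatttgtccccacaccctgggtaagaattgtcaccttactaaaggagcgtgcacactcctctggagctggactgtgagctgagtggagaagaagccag
Gm3776: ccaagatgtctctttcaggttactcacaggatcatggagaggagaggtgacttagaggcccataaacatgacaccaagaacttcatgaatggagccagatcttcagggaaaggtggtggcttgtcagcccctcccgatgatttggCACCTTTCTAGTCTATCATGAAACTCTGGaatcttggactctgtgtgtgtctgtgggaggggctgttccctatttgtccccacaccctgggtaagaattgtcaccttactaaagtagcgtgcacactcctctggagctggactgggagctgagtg
Gsta2: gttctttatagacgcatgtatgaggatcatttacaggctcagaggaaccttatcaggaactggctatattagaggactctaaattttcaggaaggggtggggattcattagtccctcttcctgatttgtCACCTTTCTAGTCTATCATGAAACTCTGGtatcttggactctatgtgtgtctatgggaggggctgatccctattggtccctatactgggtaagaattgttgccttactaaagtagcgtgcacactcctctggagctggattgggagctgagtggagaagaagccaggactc
Aligned over their length, the windows of Gsta1 and Gm3776 were 90.73% identical, those of Gsta1 and Gsta2 74.6% and those of Gsta2 and Gm3776 68.65%. The window of Gsta2 lies wholly inside the gene as annotated, so its RefSeq start is not the outermost annotated start.

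Gsta1 had 709.9 to 1705 normalized counts (median 1178) in livers labelled Trib1-KO, 123 to 843 (median 486) in Cebpa-KO livers, 118 to 509 (median 366) in livers labelled DKO and 120.4 to 895 (median 205) in WT livers. Its rise in livers labelled Trib1-KO against WT was 2.30 ± 0.47 (adjusted p = 0.00072), a 4.91-fold difference. The overlap with WT came from the single library B3, at 895 normalized counts, since the other 5 WT libraries lay between 120.4 and 216. Gm3776, its neighbour, was higher by 2.46 ± 0.42 (adjusted p = 9.1e-05) in the same comparison, with 585 to 1139 (median 744) normalized counts in livers labelled Trib1-KO and 73.8 to 560.1 (median 116) in WT livers. In Cebpa-KO livers Gsta1 differed from WT by 0.74 ± 0.47 (adjusted p = 0.4), with a 95% interval of -0.24 to 1.71, and without libraries B3, F3 and H3 it was called at 1.45 (adjusted p = 0.0095, and 0.0093 without D2 as well). Relative to WT it stood at 0.31 ± 0.47 (adjusted p = 0.81) in livers labelled DKO, where the groups overlapped.

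Gsta2 had 287 to 419.8 normalized counts (median 371) in livers labelled Trib1-KO, 1059 to 4422 (median 3429.6) in Cebpa-KO livers, 574 to 2148 (median 1597) in livers labelled DKO and 697 to 2108 (median 1039) in WT livers. All livers labelled Trib1-KO lay below all WT livers, and the change was -1.54 ± 0.31 (adjusted p = 0.00066). The same gene rose in Cebpa-KO livers, by 1.50 ± 0.31 (adjusted p = 0.0022), where only the lowest Cebpa-KO library, F3 at 1059, lay within the WT range. The difference from WT in livers labelled DKO was 0.41 ± 0.31 (adjusted p = 0.55), which was called at 0.87 (adjusted p = 0.0019) without libraries B3, F3 and H3, and likewise without D2 as well. The normalized counts of Gsta1 over those of Gsta2 gave a ratio of 2.37 to 4.37 (median 3) in livers labelled Trib1-KO, 0.0678 to 0.191 (median 0.141) in Cebpa-KO livers, 0.112 to 0.305 (median 0.201) in livers labelled DKO and 0.111 to 0.424 (median 0.199) in WT livers. The order of these genes by level was thus turned round in every library labelled Trib1-KO and in none of the other 18. The sum of Gsta1, Gm3776 and Gsta2, which does not depend on how reads were divided among them, averaged 2315 ± 635 in livers labelled Trib1-KO, 3915 ± 1505 in Cebpa-KO livers, 2017 ± 751 in livers labelled DKO and 1591 ± 982 in WT livers (SD, n = 6 each), and its libraries overlapped between every group and WT.

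**Figure D3:**
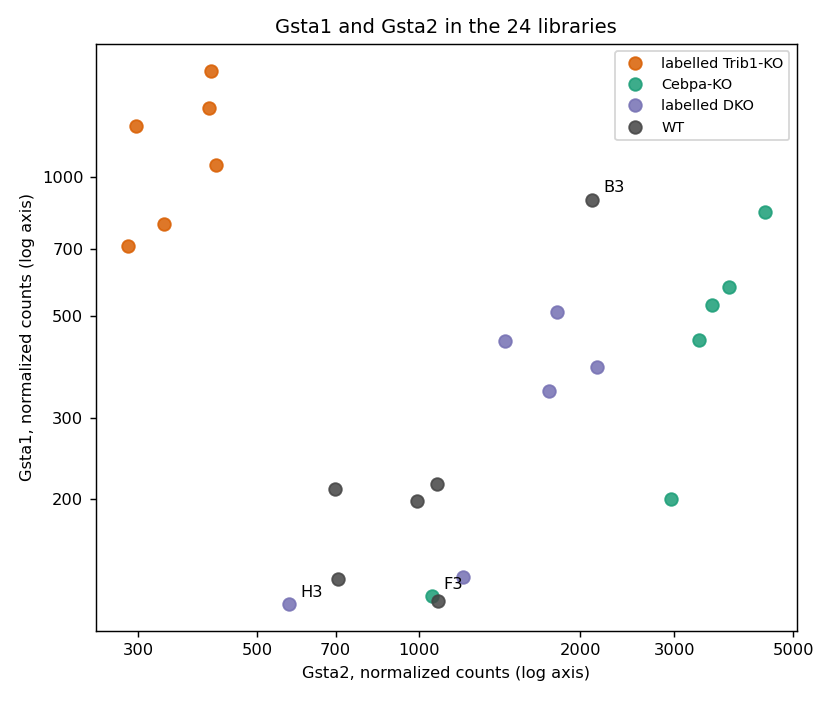
Normalized counts of Gsta1 against those of Gsta2 (both log axes) in the 24 libraries, with libraries B3, F3 and H3 named. The 6 libraries labelled Trib1-KO stand apart at the upper left, with Gsta1 at 709.9 or more and Gsta2 at 419.8 or less.

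Gsta3 is the alpha class subunit that in mouse liver conjugates the reactive epoxide of aflatoxin. It lies apart from the others on chromosome 1 (21240589 to 21265661, plus strand, GRCm38) and has the highest level of the class per kilobase of exon. It had 14992 to 20766.5 normalized counts (median 18145) in livers labelled Trib1-KO, 35454 to 49251 (median 46263) in Cebpa-KO livers, 25376 to 39729 (median 35819) in livers labelled DKO and 28315 to 36624 (median 32039.5) in WT livers. No library labelled Trib1-KO reached the WT range, and the change of -0.84 ± 0.11 (adjusted p = 1.7e-06) had an interval of -1.07 to -0.62. In Cebpa-KO livers Gsta3 rose by 0.46 ± 0.11 (adjusted p = 0.0059), although library F3 lay within the WT range. Its value in livers labelled DKO was 0.11 ± 0.11 (adjusted p = 0.67) relative to WT, with an interval of -0.11 to 0.33.

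Gsta4 encodes the subunit that conjugates hydroxynonenal, a product of lipid peroxidation. It had 652 to 1136 normalized counts (median 850.4) in livers labelled Trib1-KO, 1581 to 2069 (median 1871) in Cebpa-KO livers, 1184 to 1878 (median 1728) in livers labelled DKO and 1295 to 2050.1 (median 1407) in WT livers. Every library labelled Trib1-KO lay below every WT library, with a change of -0.87 ± 0.14 (adjusted p = 4.2e-05). The differences in Cebpa-KO livers, 0.28 ± 0.14 (adjusted p = 0.25), and in livers labelled DKO, 0.04 ± 0.14 (adjusted p = 0.93), did not pass, and the second lay on the other side of 0 without WT library A1 or DKO library G2 (-0.013 and -0.015).

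Among the promoter windows of the 9 genes for which RefSeq gave one (none for Gsta4), that of Gsta3 held the most motif matches, and it is shown for that reason (chr1:21240335-21240634, plus strand). Capitals mark matches on either strand to GTTAAT, bound by HNF1 factors (149 bases before the start), to TTGCNNAA, a core form of the C/EBP site (137 bases before), and to TGACNNNGC, the core of the antioxidant response element that NRF2 binds (121 bases before).
Gsta3: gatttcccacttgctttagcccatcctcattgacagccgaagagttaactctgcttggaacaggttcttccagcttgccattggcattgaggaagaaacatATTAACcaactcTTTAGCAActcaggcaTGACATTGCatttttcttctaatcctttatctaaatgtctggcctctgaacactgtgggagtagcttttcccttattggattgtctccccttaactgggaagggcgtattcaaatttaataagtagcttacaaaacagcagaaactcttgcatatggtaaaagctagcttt
These motifs occur in 7.2%, 10.8% and 12.5% of the 27025 promoter windows of the same length, so that single matches are common. The windows of Gsta1, Gstm1, Gstm3, Gstm6 and Gstt3 held none of these motifs, nor the AP-1 site TGANTCA or the TATA box TATAAA. Only the first listed start of each gene was searched, and RefSeq lists 2 starts for Gstm1 and Gstt3 and 3 for Gstm6. The window of Gstm6 (chr3:107953417-107953716, minus strand) lies outside the gene as annotated at 107938847 to 107943749. No match says only that these letters are not in this window.

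The 4 mu class genes lie with Gstm4, Gstm5 and Gstm7 in a cluster on chromosome 3 of GRCm38. All 4 are on the minus strand, in the order Gstm6 (107938847 to 107943749), Gstm3 (107963696 to 107969283), Gstm2 (107981702 to 107986453) and Gstm1 (108012255 to 108017973). Their coding sequences, the longest annotated for each gene, are 76.78 to 84.71% identical, less than the pairs Gsta1 and Gsta2 or Gstp1 and Gstp2. Gaps count as differences in these values. The coding sequence used for Gstm1 has 732 bases against 654 in Gstm2 and Gstm3, which lowers the values of Gstm1 with them. Gstm1, Gstm3 and Gstm6 fell in livers labelled Trib1-KO and rose in Cebpa-KO livers, while Gstm2 rose in Cebpa-KO livers and was not called in livers labelled Trib1-KO.

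Gstm1 encodes the main mu class subunit of mouse liver. It had 21393 to 35694 normalized counts (median 26102) in livers labelled Trib1-KO, 78443 to 146617 (median 119723) in Cebpa-KO livers, 46685 to 147907 (median 103438) in livers labelled DKO and 43079.7 to 79545 (median 64227) in WT livers. Per kilobase of exon it was the highest of the 10 genes in all 4 groups, at 18762 ± 4129 in livers labelled Trib1-KO, 79538 ± 15839 in Cebpa-KO livers, 69603 ± 24318 in livers labelled DKO and 41436 ± 8931 in WT livers (SD, n = 6 each). The change in livers labelled Trib1-KO was -1.14 ± 0.22 (adjusted p = 0.0003), without overlap. In Cebpa-KO livers it rose by 0.94 ± 0.22 (adjusted p = 0.0049), where the lowest library, F3, lay within the WT range. For livers labelled DKO the difference from WT, 0.69 ± 0.22 (adjusted p = 0.061), did not pass. It passed without DKO library H3 alone (0.90, adjusted p = 0.003), without WT library B1 alone (0.77, adjusted p = 0.045), and without B3, F3 and H3 together (0.92, adjusted p = 0.0026, and 0.0029 without D2 as well).

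Gstm3 had the largest rise of the 10 genes in Cebpa-KO livers and in livers labelled DKO. It had 706 to 2245 normalized counts (median 1205) in livers labelled Trib1-KO, 10050.0 to 17970.1 (median 15054) in Cebpa-KO livers, 6839 to 13659 (median 11263) in livers labelled DKO and 1707 to 5827 (median 3831) in WT livers. Each of the 12 libraries of Cebpa-KO livers and livers labelled DKO lay above all 6 WT libraries. The rise was 2.03 ± 0.26 (adjusted p = 7e-06) in Cebpa-KO livers, 4.09-fold, and 1.60 ± 0.26 (adjusted p = 0.0003) in livers labelled DKO, 3.03-fold. In livers labelled Trib1-KO Gstm3 fell by 1.46 ± 0.26 (adjusted p = 0.00015), and the highest libraries there overlapped with the lowest WT library. Its ratio to Gstm2 was 0.703 to 1.36 in livers labelled Trib1-KO, 4.12 to 6.23 in Cebpa-KO livers, 5.55 to 7.49 in livers labelled DKO and 1.02 to 3.27 in WT livers.

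The promoter windows of Gstm2 and Gstm3 are shown side by side because these neighbours, with 84.71% identical coding sequence, had different patterns. They cover chr3:107986371-107986670 and chr3:107969125-107969424, both on the minus strand. Capitals mark the longest shared run, 14 bases that begin 28 bases after the start in Gstm2 and 35 after it in Gstm3. The run begins with the letters ATG and lies after the start in both, so it is not a shared stretch before the start.
Gstm2: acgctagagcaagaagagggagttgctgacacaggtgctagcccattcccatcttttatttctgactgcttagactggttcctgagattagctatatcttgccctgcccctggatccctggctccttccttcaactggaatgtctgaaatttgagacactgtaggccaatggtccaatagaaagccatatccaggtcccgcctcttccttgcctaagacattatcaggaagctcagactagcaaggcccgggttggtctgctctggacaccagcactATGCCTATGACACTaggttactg
Gstm3: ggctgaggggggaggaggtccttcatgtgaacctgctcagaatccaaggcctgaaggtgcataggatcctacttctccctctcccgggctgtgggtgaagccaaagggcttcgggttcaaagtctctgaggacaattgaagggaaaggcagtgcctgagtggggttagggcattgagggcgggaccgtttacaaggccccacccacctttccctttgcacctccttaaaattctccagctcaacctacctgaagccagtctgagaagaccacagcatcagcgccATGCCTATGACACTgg
Aligned over their length, the windows were 47.63% identical. Against the window of Gm3776, on chromosome 9, that of Gstm2 was 48.8% identical and that of Gstm3 43.53%, so 47.63% shows no special likeness. The window of Gstm2 also held a match to TTGCNNAA, 42 bases before the start.

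Gstm2 had 1004 to 1649 normalized counts (median 1427) in livers labelled Trib1-KO, 2439 to 4242 (median 2737) in Cebpa-KO livers, 1233 to 2256 (median 1794) in livers labelled DKO and 1395 to 1783 (median 1703) in WT livers. Its rise in Cebpa-KO livers was 0.83 ± 0.14 (adjusted p = 0.00023), with all libraries above WT. In livers labelled Trib1-KO it was the exception among the 10 genes, at -0.22 ± 0.14 (adjusted p = 0.29), with an interval of -0.51 to 0.06. Between livers labelled DKO and WT the difference was 0.09 ± 0.14 (adjusted p = 0.81).

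Gstm6 had 989.9 to 1391 normalized counts (median 1212) in livers labelled Trib1-KO, 2846 to 3588 (median 3219) in Cebpa-KO livers, 1743 to 2529 (median 2270.2) in livers labelled DKO and 2012 to 2829 (median 2315) in WT livers. Its coefficient of variation was 8.82 to 12.4% over the groups. Its change of -0.95 ± 0.09 (adjusted p = 3.8e-08) in livers labelled Trib1-KO and its rise of 0.44 ± 0.09 (adjusted p = 0.0026) in Cebpa-KO livers were both without overlap. Between livers labelled DKO and WT it was -0.07 ± 0.09 (adjusted p = 0.76), with an interval of -0.27 to 0.12. The sum of all 7 Gstm genes averaged 34334 ± 6839 in livers labelled Trib1-KO, 141826 ± 25081 in Cebpa-KO livers, 121259 ± 39012 in livers labelled DKO and 72191 ± 14521 in WT livers (SD, n = 6 each). That of livers labelled Trib1-KO was below WT in every library, at 27482 to 43398 against 52220 to 92409.5.

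**Figure D4:**
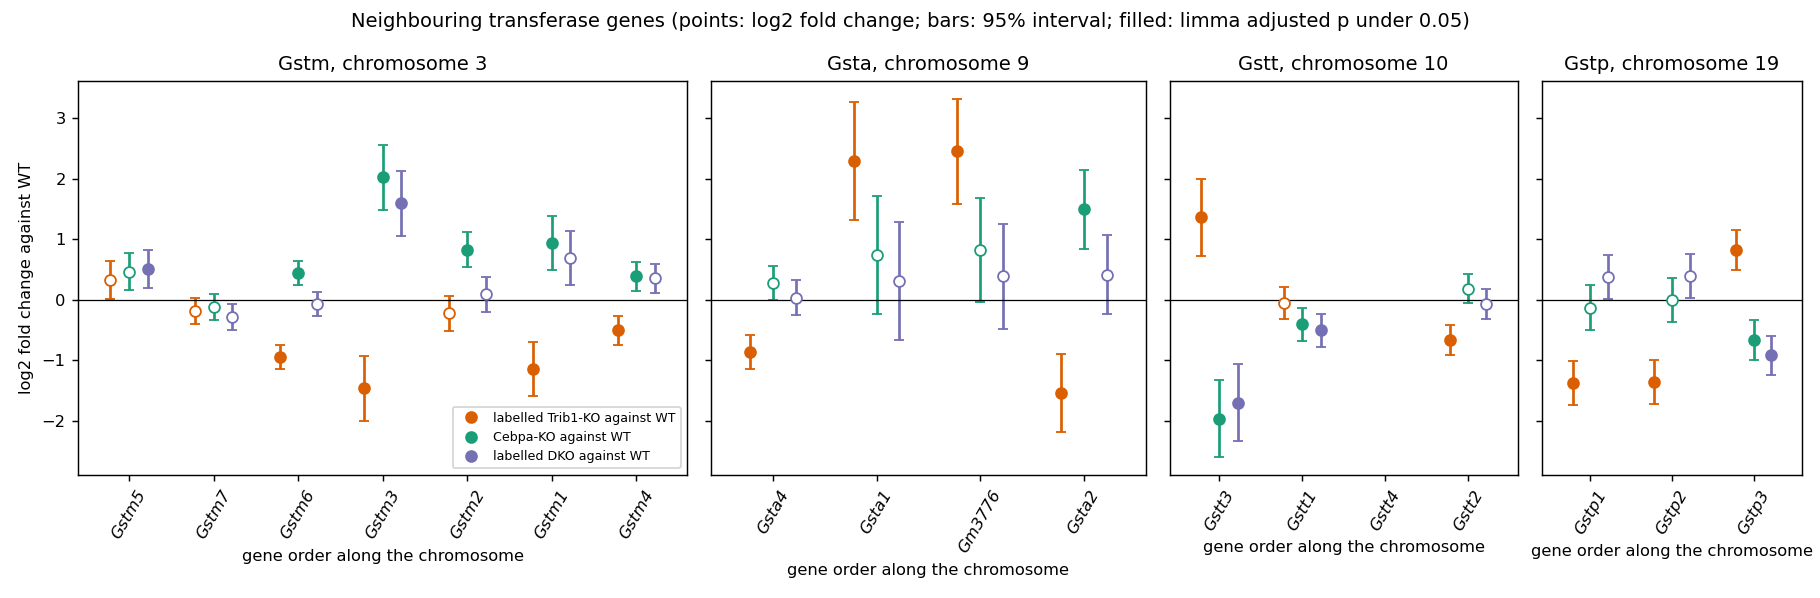
Log2 fold changes against WT with 95% intervals for the transferase genes in their order along 4 clusters, filled where limma's adjusted p was under 0.05 (Gstt4 was not tested). Neighbours with different directions stand beside each other, such as Gm3776 and Gsta2 or Gstp2 and Gstp3 in livers labelled Trib1-KO.

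Gstp1 encodes the pi class subunit, which is abundant in the liver of male mice. It lies on chromosome 19 (4035407 to 4037985, minus strand, GRCm38) beside Gstp2 (4040285 to 4046023, minus strand), with which it shares 618 of 630 aligned coding bases (98.1%). Gstp1 had 13894.5 to 24732 normalized counts (median 18921.5) in livers labelled Trib1-KO, 34638 to 61985 (median 46527) in Cebpa-KO livers, 44227 to 87779.8 (median 70733) in livers labelled DKO and 40016 to 63499.5 (median 48732) in WT livers. All livers labelled Trib1-KO lay below all WT livers, a change of -1.38 ± 0.18 (adjusted p = 2.1e-06) or 0.384-fold. The differences in Cebpa-KO livers, -0.13 ± 0.18 (adjusted p = 0.74), and in livers labelled DKO, 0.37 ± 0.18 (adjusted p = 0.27), did not pass. Gstp2 had a change of -1.36 ± 0.18 in livers labelled Trib1-KO (adjusted p = 2.1e-06), and the sum of Gstp1 and Gstp2, which does not depend on the split between them, averaged 21778 ± 4670.1 in livers labelled Trib1-KO, 52288 ± 11531 in Cebpa-KO livers, 74493 ± 19881 in livers labelled DKO and 56021 ± 8337 in WT livers (SD, n = 6 each). The windows of both genes are shown because they moved together and each held an AP-1 site. They cover chr19:4037863-4038162 and chr19:4042172-4042471, both on the minus strand, and capitals mark the match to TGANTCA, 74 and 89 bases before the start, a motif found in 7.93% of all windows.
Gstp1: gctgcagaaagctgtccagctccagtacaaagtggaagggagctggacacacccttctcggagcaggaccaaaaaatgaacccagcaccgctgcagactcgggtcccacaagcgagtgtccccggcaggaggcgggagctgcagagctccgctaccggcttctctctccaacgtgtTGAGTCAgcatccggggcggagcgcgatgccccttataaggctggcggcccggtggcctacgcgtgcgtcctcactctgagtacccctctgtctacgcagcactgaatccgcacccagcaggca
Gstp2: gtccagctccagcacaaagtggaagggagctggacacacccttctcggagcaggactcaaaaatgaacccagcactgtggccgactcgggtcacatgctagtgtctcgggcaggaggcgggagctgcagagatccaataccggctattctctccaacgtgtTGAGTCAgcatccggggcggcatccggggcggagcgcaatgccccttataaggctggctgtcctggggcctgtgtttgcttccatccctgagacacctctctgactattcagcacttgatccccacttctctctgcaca
The windows were 76.42% identical when aligned. That of Gstp2 lies wholly inside the gene as annotated, so its RefSeq start is not the outermost annotated start. Gstp3, the next gene of the cluster, with 72.71% coding identity to Gstp1, rose by 0.82 ± 0.16 (adjusted p = 0.00034) in livers labelled Trib1-KO, fell by 0.67 ± 0.16 in Cebpa-KO livers (adjusted p = 0.0063) and fell by 0.92 ± 0.16 in livers labelled DKO (adjusted p = 0.0005).

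Gstt3 is a theta class gene, of a class that acts on small halogenated molecules, and lies on chromosome 10 (75774115 to 75781414, minus strand, GRCm38) beside Gstt1. It had 2566 to 3684 normalized counts (median 3091) in livers labelled Trib1-KO, 145 to 507 (median 343) in Cebpa-KO livers, 146 to 857 (median 358) in livers labelled DKO and 698 to 1559.8 (median 1319.6) in WT livers. Every library labelled Trib1-KO was above WT, by 1.36 ± 0.31 (adjusted p = 0.0017) or 2.57-fold. Every Cebpa-KO library was below WT, with a change of -1.97 ± 0.31 (adjusted p = 9.3e-05). In livers labelled DKO the change was -1.70 ± 0.31 (adjusted p = 0.00085), with the highest library inside the WT range. Gstt3 thus had 2 directions where its neighbour Gstt1 was called lower in Cebpa-KO livers (-0.41 ± 0.13 (adjusted p = 0.047)) and livers labelled DKO (-0.51 ± 0.13 (adjusted p = 0.019)) and stood at -0.05 ± 0.13 (adjusted p = 0.83) in livers labelled Trib1-KO.

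Livers labelled DKO and Cebpa-KO livers both have floxed Cebpa and differ in floxed Trib1. Gstm2 and Gstm6 were lower in livers labelled DKO, with changes of -0.74 ± 0.14 (adjusted p = 0.02) and -0.52 ± 0.09 (adjusted p = 0.015), and no gene of the 10 was called higher by limma. At an unadjusted p under 0.05 from limma, 1 gene, Gstp1, was higher. At that threshold 4 were lower, namely Gstm2, Gstm6, Gsta2 and Gsta3 (-0.35 ± 0.11, adjusted p = 0.25). Over all genes 0.121% were called lower and 0.0808% higher in this comparison. For Gstm2 and Gstm6 all livers labelled DKO lay below all Cebpa-KO livers, where 0.712% of all genes did not overlap. Median changes were -0.39 over the 10 genes and -6.2e-04 over all genes. The call of Gstm2 was lost without Cebpa-KO library F1 (-0.71, adjusted p = 0.058), and both calls were lost when only these 12 libraries were fitted (adjusted p = 0.14 and 0.066). Gsta2 stood at -1.08 ± 0.31 (adjusted p = 0.19), and passed without Cebpa-KO library F3 (-1.37, adjusted p = 0.02) and without B3, F3 and H3 (-1.12, adjusted p = 0.0031, and 0.0044 without D2 as well). Gstp1, the highest of the differences, was 0.51 ± 0.18 (adjusted p = 0.34), with an interval of 0.14 to 0.87. The other 6 genes ranged from -0.43 to 0.26 with no call.

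Livers labelled DKO and livers labelled Trib1-KO both have floxed Trib1 and differ in floxed Cebpa. In livers labelled DKO 7 genes were higher and 2 lower than in livers labelled Trib1-KO, where 14.6% and 15.7% of all genes were. Gstm3 was higher by 3.06 ± 0.26 (adjusted p = 1.2e-09), an 8.34-fold difference, and Gsta2, Gstm1 and Gstp1 by 1.95 ± 0.31, 1.83 ± 0.22 and 1.76 ± 0.18. Gsta3, Gsta4 and Gstm6 were higher by 0.87 to 0.95. Gstt3 and Gsta1 were lower, with changes of -3.07 ± 0.31 (adjusted p = 1.8e-08) for Gstt3 and -1.98 ± 0.47 (adjusted p = 0.0021) for Gsta1. None of these 9 genes overlapped between the groups (16.9% of all genes did not). Gstm2 was 0.32 ± 0.14 (adjusted p = 0.094) and passed without DKO library H3 (0.41, adjusted p = 0.021), but not without B3, D2, F3 and H3 together. The median change was 0.93 over the 10 genes and -0.023 over all genes, and the scaling without Mup genes moved the median of all genes by -0.26 and kept the 9 calls.

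The interaction asks whether the difference between floxed and unfloxed Trib1 is the same with and without floxed Cebpa. It is the difference between livers labelled DKO and Cebpa-KO livers, minus that between livers labelled Trib1-KO and WT livers. Of the 10 genes, 4 had a positive interaction and 1 a negative one past the threshold, where 6.35% and 6.22% of all genes did. Gstp1 was 1.89 ± 0.25 (adjusted p = 8.9e-06) and Gsta1 -2.72 ± 0.67 (adjusted p = 0.0071), and both kept their calls in every alternative that was run. Gm3776 had -2.89 ± 0.59 (adjusted p = 0.0014) and Gstp2 1.76 ± 0.25 (adjusted p = 1.9e-05). The interactions of Gsta3, 0.50 ± 0.15 (adjusted p = 0.031), Gsta4, 0.63 ± 0.20 (adjusted p = 0.036), and Gstm6, 0.43 ± 0.13 (adjusted p = 0.034), were close to the threshold. Leaving out a single library ended the call of Gsta3 in 8 cases (A1, A3, B1, C1, D2, F3, G1 or H1, adjusted p up to 0.057), of Gsta4 in 12 (B1, B3, C3, D2, D3, E2, F2, F3, G1, G2, H1 or H2, up to 0.067) and of Gstm6 in 9 (A3, B1, C3, D2, E1, F3, G1, G3 or H1, up to 0.062). Gstm1 (0.89, adjusted p = 0.06), Gstm2 (-0.51, 0.095), Gstm3 (1.03, 0.07), Gstt3 (-1.10, 0.1) and Gsta2 (0.46, 0.59) did not pass. Of these, Gstm1 passed without A3, C1, E1 or H3, Gstm3 without A3, C1 or H3, Gstm2 without D2 or G1, and Gstt3 without F3 or H2, with adjusted p from 0.0044 to 0.049. Without B3, F3 and H3, Gstm1 (0.96, adjusted p = 0.012) and Gstt3 (-1.37, adjusted p = 0.038) passed. Without D2 as well, these passed (adjusted p = 0.021 and 0.042), Gstm2 passed (-0.59, adjusted p = 0.029) and Gsta4 did not (0.52, adjusted p = 0.068). With library weights Gstm1 and Gstt3 passed (adjusted p = 0.035 and 0.048). The scaling without Mup genes moved the median interaction of all genes by -0.22 and ended the calls of Gsta3, Gsta4 and Gstm6 (0.26, 0.39 and 0.19, adjusted p = 0.28, 0.22 and 0.39), while Gstm2 (-0.75, adjusted p = 0.012) and Gstt3 (-1.34, adjusted p = 0.023) passed. Without a filter on low values the calls of Gsta3, Gsta4 and Gstm6 ended (adjusted p = 0.053, 0.054 and 0.051). Quantile normalization ended those of Gsta3 (0.16, adjusted p = 0.68) and Gstm6 (0.39, adjusted p = 0.057), and equal totals ended that of Gsta4 (0.66, adjusted p = 0.053). The median interaction was 0.48 over the 10 genes and -0.0091 over all genes.

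Added together, the 10 genes made up 0.291% of all normalized counts in livers labelled Trib1-KO (0.225 to 0.36%), 0.962% in Cebpa-KO livers (0.762 to 1.17%), 0.916% in livers labelled DKO (0.594 to 1.21%) and 0.623% in WT livers (0.517 to 0.73%). Gstm1, Gstp1 and Gsta3 gave most of this sum in every group. Gstm1 was 36.8 ± 3.29% of it in livers labelled Trib1-KO, 49.6 ± 4.06% in Cebpa-KO livers, 44.9 ± 8.43% in livers labelled DKO and 39 ± 4.2% in WT livers (SD, n = 6 each). Gstp1 took 26 ± 3.57% in livers labelled Trib1-KO, 19.9 ± 4.73% in Cebpa-KO livers, 30.6 ± 9.2% in livers labelled DKO and 32.3 ± 3% in WT livers. Gstt3 rose to 4.27 ± 0.996% of the sum in livers labelled Trib1-KO, against 0.823 ± 0.291% in WT livers. Per kilobase of exon Gstm1 ranked first and Gstp1 second in all 4 groups, Gsta2 had rank 10 in livers labelled Trib1-KO, 5 in Cebpa-KO livers and livers labelled DKO and 8 in WT livers, and Gsta1 had rank 4 in livers labelled Trib1-KO, 9 in Cebpa-KO livers and livers labelled DKO and 10 in WT livers. With such overlapping ranges, neighbouring ranks often did not differ beyond their spread, also within the top 4. In livers labelled Trib1-KO, Gsta1 at rank 4 ranged from 743 to 1784 per kilobase and Gstm3 at rank 5 from 539 to 1713. These lengths join all annotated exons of a gene, which understates genes with long rarely used exons.

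Within groups the genes did not vary independently from library to library. The correlations that follow describe deviations of log2 values from their group means over the 24 libraries, which share depth and size factors, and carry no test. For Gsta1 and Gstt3 the Pearson r was -0.0054, for Gsta1 and Gstp1 -0.060. The highest values were 0.83 for Gsta3 and Gstm6, on different chromosomes, 0.82 for Gsta1 and Gsta2, 0.78 for Gstm2 and Gstm6, and 0.76 for Gstm1 and Gstm3. Without libraries B3, F3 and H3 these highest values became 0.77, 0.57, 0.70 and 0.78, so that of the pair Gsta1 and Gsta2 rested most on these libraries. Gsta1 and Gsta2 thus deviated together within groups although their group means moved apart in livers labelled Trib1-KO. Gstp1 and Gstt3 had an r of -0.54, and -0.61 without the 3 libraries.

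**Figure D5:**
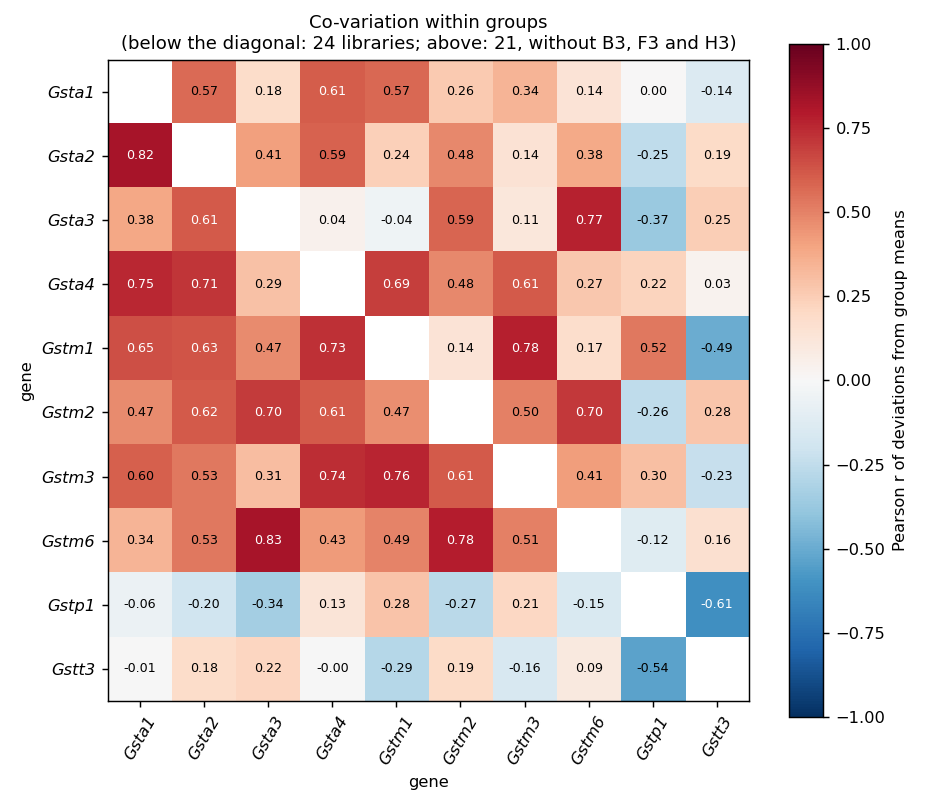
Pearson r of deviations of log2(value + 1) from group means for each pair of the 10 genes, with 24 libraries below the diagonal and 21 (without B3, F3 and H3) above it. Gsta3 with Gstm6 and Gstm1 with Gstm3 stay high on both sides of the diagonal, while Gstp1 and Gstt3 are mostly low with the other genes.

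Of 10105 genes outside the family (Gm3776 counted as within it) with a mean of at least 100 normalized counts, those whose pattern over the 24 libraries was most like each gene are given by Pearson r, as a description in which group differences take a large part. Gsta1 was most like Nqo1 (0.87), a quinone reductase. Gsta3 was most like Galm and Ces1e (both 0.98), and Gstm6 like Ces1e (0.96). Gstm3 was most like the imprinted RNA Rian (0.96) and the cytochrome P450 gene Cyp2c55 (0.95). Gstp1 was most like Cyp7b1, an oxysterol hydroxylase, and Mup20, a pheromone protein of males (both 0.93). Gstt3 was most like Vnn3 (0.96), Gstm1 like Hsd17b11 (0.95), Gsta2 like 9130409I23Rik (0.94), Gsta4 like Fads1 (0.92) and Gstm2 like Tceal8 (0.91).

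Other transferases and related genes did not move as a block. The list of 22 further genes held cytosolic, kappa and membrane-bound transferases and related genes such as Alox5ap and Ptges2. Of these, 21 had a row and 20 were tested. In livers labelled Trib1-KO 4 rose and 5 fell (11.8% and 10.9% of all genes did). In Cebpa-KO livers 1 rose and 4 fell (4.6% and 5.22%), and 1 rose and 4 fell in livers labelled DKO (2.84% and 3.25%). A count of 1 in 20 is near these shares. Mgst1, the abundant microsomal transferase of liver, had 81839.9 to 104659 normalized counts (median 96627) in livers labelled Trib1-KO, 29765 to 35995 (median 32324) in Cebpa-KO livers, 31835 to 36675 (median 33459) in livers labelled DKO and 44314 to 71295 (median 58348) in WT livers. Its direction was the reverse of most of the 10 genes, with 0.70 ± 0.09 (adjusted p = 1.9e-06) in livers labelled Trib1-KO, -0.84 ± 0.09 (adjusted p = 6.3e-07) in Cebpa-KO livers and -0.80 ± 0.09 (adjusted p = 2.1e-06) in livers labelled DKO, and the groups did not overlap with WT. Hpgds, the haematopoietic prostaglandin D synthase, and Mgst2 rose in livers labelled Trib1-KO by 1.99 ± 0.49 and 3.44 ± 0.67, with medians of 106 and 22.6 normalized counts there against 16.7 and 0.174 in WT livers. Gsto1, of the omega class, fell by 1.01 ± 0.09, and Gstt2, Gstm4 and the mitochondrial Gstk1 by 0.67, 0.50 and 0.31. Gstm4 rose in Cebpa-KO livers (0.39) and Gstm5 in livers labelled DKO (0.51), and Ptges, a prostaglandin E synthase, fell by 2.00 and 2.02 in these groups. Gstm7, Gsto2, Gstz1, Gstcd, Mgst3, Ltc4s, Alox5ap and Ptges2 were called in none of the 3 comparisons with WT. Gstt4 did not pass the filter on low values and Gsta5 had no row, so these were not tested. In the interaction 2 of the 20 were positive, Gstp2 and Gsto1 (0.99), and 4 negative, Gstp3 (-1.08), Mgst1 (-0.66), Mgst2 (-3.28) and Hpgds (-2.41).

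Among the genes that make and recycle glutathione, calls went in both directions. In livers labelled Trib1-KO, 2 of 16 rose and 4 fell, beside the 11.8% and 10.9% of all genes, and the 2 are near that share. Slc7a11, the cystine importer, rose by 4.51 ± 0.61 (adjusted p = 4.4e-06) and Gss, glutathione synthetase, by 0.56 ± 0.10, while Gclm, the modifier subunit of the rate-limiting enzyme, fell by 0.70 ± 0.07 (adjusted p = 6.9e-08). Lap3, a peptidase, and Chac2, which cleaves glutathione, fell by 0.65 ± 0.07 and 0.79 ± 0.12. In Cebpa-KO livers 4 rose and 2 fell, beside 4.6% and 5.22% of all genes, among them Gclm at 0.26 ± 0.07 (adjusted p = 0.021), Ggct at 0.75 ± 0.15 (adjusted p = 0.0012) and Lap3 at 0.33 ± 0.07 (adjusted p = 0.004) upwards, and the transsulfuration enzymes Cbs at -0.69 ± 0.15 (adjusted p = 0.0037) and Cth at -0.63 ± 0.17 (adjusted p = 0.016) downwards. In livers labelled DKO 3 rose and 1 fell, beside 2.84% and 3.25% of all genes, with Gclm at 0.36 ± 0.07 (adjusted p = 0.0025) and Cth at -0.78 ± 0.17 (adjusted p = 0.0047). The single gene that fell there is near the share of all genes.

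Of 12 genes that export conjugates or turn them into mercapturates, 1 rose and 6 fell in livers labelled Trib1-KO (11.8% and 10.9% of all genes did), 4 rose and 1 fell in Cebpa-KO livers (4.6% and 5.22%), and 5 rose and 1 fell in livers labelled DKO (2.84% and 3.25%). The single genes are near these shares. Abcg2, an efflux pump, was -0.61 ± 0.11 (adjusted p = 0.00014) in livers labelled Trib1-KO, 0.78 ± 0.11 (adjusted p = 1.8e-05) in Cebpa-KO livers and 0.66 ± 0.11 (adjusted p = 0.00032) in livers labelled DKO. Nat8f1, of the acetyltransferase family that finishes mercapturates, was -1.58 ± 0.11 (adjusted p = 1.4e-10) in livers labelled Trib1-KO, 0.59 ± 0.11 (adjusted p = 0.0011) in Cebpa-KO livers and 0.53 ± 0.11 (adjusted p = 0.0049) in livers labelled DKO. Its relative Nat8 fell by 1.70 ± 0.16 in livers labelled Trib1-KO, 1.00 ± 0.16 in Cebpa-KO livers and 0.73 ± 0.16 in livers labelled DKO. Of 13 glutathione peroxidases and redoxins, 1 rose and 3 fell in livers labelled Trib1-KO, where Gpx1 fell by 0.41 ± 0.08, 1 rose and 1 fell in Cebpa-KO livers, and Prdx6 alone fell in livers labelled DKO, where single genes of 13 are again near the shares of all genes.

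The lists of genes under the regulators named above also split. Of 18 NRF2 targets outside the family, 11 rose and 4 fell in livers labelled Trib1-KO, beside 11.8% and 10.9% of all genes. Pgd and Cbr1 rose by 1.22 ± 0.10 and 1.45 ± 0.15, Srxn1 by 1.76 ± 0.18 and Nqo1 by 0.75 ± 0.20 (adjusted p = 0.0073), whereas Gclm, Ephx1 and Aox1 fell by 0.70, 0.99 and 0.64. In Cebpa-KO livers 2 rose and 1 fell (4.6% and 5.22% of all genes), and in livers labelled DKO 3 rose and 1 fell (2.84% and 3.25%). Of 16 CAR and PXR targets, against the same shares of all genes, 5 rose and 7 fell in livers labelled Trib1-KO, 4 rose and 2 fell in Cebpa-KO livers, and 5 rose in livers labelled DKO. Cyp2c29, Cyp2c37 and Cyp2c55 had -3.96, -4.51 and -3.35 in livers labelled Trib1-KO, 0.72, 1.50 and 2.59 in Cebpa-KO livers and 0.61, 1.02 and 2.01 in livers labelled DKO, while Cyp2b13 and Cyp2b9 rose by 7.11 and 9.96 in livers labelled Trib1-KO. Among 22 regulators, Nfe2l2, which encodes NRF2, rose in livers labelled Trib1-KO by 0.86 ± 0.10 (adjusted p = 5.3e-07) and in Cebpa-KO livers by 0.31 ± 0.10 (adjusted p = 0.048), and Nr1i3, which encodes CAR, fell in livers labelled Trib1-KO by 1.39 ± 0.15 (adjusted p = 1.5e-07). Cebpa itself was lower in livers labelled Trib1-KO, with a change of -1.16 ± 0.16.

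Markers of other cell types were called mainly in livers labelled Trib1-KO. The summed macrophage markers were 11150 to 13952 normalized counts in livers labelled Trib1-KO, 6967 to 10391 in Cebpa-KO livers, 6559 to 10364 in livers labelled DKO and 5796 to 10587 in WT livers, and 6 of 8 rose in livers labelled Trib1-KO. The 6 cholangiocyte markers summed to 795 to 963 in livers labelled Trib1-KO, 2577 to 7826 in Cebpa-KO livers, 2346 to 5367 in livers labelled DKO and 1085 to 1484 in WT livers. Most of that sum was Spp1, which rose by 1.66 ± 0.21 in Cebpa-KO livers and 1.65 ± 0.21 in livers labelled DKO, while Sox9 of the same list fell by 1.88 ± 0.24 and 1.75 ± 0.24. In livers labelled Trib1-KO, 3 of 6 endothelial, 2 of 6 stellate and 2 of 7 lymphocyte markers rose, and 1 of 6 endothelial and 2 of 6 cholangiocyte markers fell, where 11.8% of all genes rose and 10.9% fell. In Cebpa-KO livers no macrophage, stellate or lymphocyte marker was called, and 1 of 6 endothelial markers rose. In livers labelled DKO no macrophage, endothelial, stellate or lymphocyte marker was called. Of the 8 hepatocyte markers, 2 rose and 4 fell in Cebpa-KO livers (4.6% and 5.22% of all genes did), with a median change of -0.24. In livers labelled DKO 1 of these 8 rose and 3 fell (2.84% and 3.25%), with a median change of -0.10. No marker of the 6 lists was at 0 in every library. The part of these markers in the transferase results was not tested.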

How the data were processed

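RNA from whole liver of 24 mice was sequenced from stranded poly(A) libraries. The authors deposited normalized counts per gene (unit signal), that is estimated counts divided by a size factor per library, which is read from the values: the median log ratio to the mean library was the same in all columns, and in each library 64.2 to 69.7% of the low values fell on whole multiples (tolerance 0.02) of what 1 read is worth there, 0.686 to 1.46, too few to recover reads. Per the submitters' processing notes, Salmon, DESeq2 and the genome GRCm38.p6 were used; versions, settings and the annotation are not given in the sources used here. Columns name a group, a letter and a number but no mouse, so no column was tied to a mouse or cohort, no cohort term was fitted, and p-values measure the spread between libraries labelled as separate mice.

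Values were analysed as log2(value + 1) by limma (version 3.58.1, R 4.3.3) with its trend option, in a single model of 4 group means over 24 libraries and 19810 genes, those whose mean value reached 1. The planned count model was not used because the values are not counts. P-values are 2-sided and adjusted by the Benjamini-Hochberg method over all genes tested, and errors after ± are standard errors for log2 changes and SD for levels. The script was tested on simulated data. Coordinates came from GENCODE M21, which holds 99.3% of the 54432 identifiers in the same version, as did exon lengths. Promoter windows are RefSeq's (GRCm38.p6), and sequences were aligned with Biopython 1.88. Motifs were searched on both strands.

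The 10 genes and all lists were chosen with earlier results of these data known. Always named were the 10 genes, Trib1, Cebpa and the list of other transferases and related genes. From other lists, up to 3 called genes with the smallest adjusted p per direction were named, and for likeness up to 3 genes of most similar pattern. Alternatives were pseudocounts of 0.5 and 10, no filter, a filter at a mean of 10, equal library totals with and without Mup genes, quantile normalization, library weights, the column number as a factor, fits of only the groups compared, each library left out in turn and, chosen after seeing the data, libraries B3, F3 and H3 left out together, also with D2.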

Additional observations from a re-analysis of the deposited data

Results flagged for a closer look

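Gsta1 in WT library B3 stood at 895 normalized counts, and the gap to the nearest of the other 5 WT libraries was 0.877 of the group's range. Gsta2 in the same library stood at 2108, with a gap of 0.724 of the range. Both gaps exceeded the critical value of Dixon's test for 6 values, and 40 combinations of gene and group were checked, of which chance flags about 1 in 20.

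The difference between floxed and unfloxed Trib1 itself differed with Cebpa for 5 genes by limma's interaction term. Gstp1 had an interaction of 1.89 (adjusted p = 8.9e-06), since it was lower by 1.38 ± 0.18 in livers labelled Trib1-KO than in WT and stood at 0.51 ± 0.18 in livers labelled DKO relative to Cebpa-KO livers. Gsta1 had -2.72 (adjusted p = 0.0071), with 2.30 ± 0.47 in the first difference and -0.42 ± 0.47 in the second. Gsta3 had 0.50 (adjusted p = 0.031), Gsta4 0.63 (adjusted p = 0.036) and Gstm6 0.43 (adjusted p = 0.034), and these 3 lost their call without some single libraries.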

How the results depend on the processing

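The titles number the mice from 1 to 24, so the groups share no replicate number there. The columns carry the numbers 1 to 3, whose meaning is not given. Between libraries of different groups, deviations from the group means had a mean r of 0.013 with the same column number (72 pairs). With different numbers it was -0.0063 (144 pairs), so the number was not taken as a pairing. This mean does not speak for single genes. Mean Gstm1 was lowest at number 3 in every group, at 22916 in livers labelled Trib1-KO and 94722 in Cebpa-KO livers. It was 65750.5 in livers labelled DKO and 53643 in WT livers. No other gene described here was lowest there in all groups. Gsta2 and Gsta4 were lowest there in the floxed groups but highest in WT livers. Libraries B3, F3 and H3 all carry number 3. With the column number as a factor Gstm1 was called in livers labelled DKO against WT (adjusted p = 0.015) and in the interaction (adjusted p = 0.016). In livers labelled Trib1-KO against WT, 2 genes rose and 7 fell under every alternative run, and in livers labelled DKO against those labelled Trib1-KO 7 or 8 rose and 2 fell. In Cebpa-KO livers 6 rose, and 7 without libraries B3, F3 and H3, with or without D2. In livers labelled DKO against WT, 1 rose, but 2 with quantile normalization, library weights or the column number as a factor, 3 without B3, F3 and H3 (with or without D2), and 1 to 2 with single libraries left out. Against Cebpa-KO livers 2 were lower, 0 when only the 2 groups were fitted (limma, where both had been called with 4 groups), 3 without B3, F3 and H3 (with or without D2), and 1 to 3 with single libraries left out. Positive interactions numbered 4, but 1 without a filter or with Mup-free totals, 2 with quantile normalization, 5 without B3, F3 and H3, 4 without D2 as well, and 1 to 6 with single libraries left out. Negative ones numbered 1, but 3 with Mup-free totals or without B3, D2, F3 and H3, 2 with library weights or without B3, F3 and H3, and 1 to 2 with single libraries left out. Signs turned for differences near 0: Gstm2 in livers labelled Trib1-KO against WT (0.020, Mup-free totals), Gsta4 in livers labelled DKO against WT (-0.0022 with Mup-free totals, and -0.015 to 0.12 with single libraries left out, below 0 without A1 or G2) and Gstt3 in livers labelled DKO against Cebpa-KO livers (-0.055 without B3, F3 and H3). The causes were not tested. Depth cannot be set per gene because whole reads could not be recovered, and the split of reads between near-identical genes limits Gsta1, Gsta2 and Gstp1.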
